A study of Mus musculus with 4 samples.

Results

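The genes described here are 7 forkhead transcription factor genes known for their roles in mesoderm: Foxc1, Foxc2, Foxd1, Foxd2, Foxf1, Foxf2 and Foxp1. They were found by symbol in the deposited gene list, where each symbol had 1 row, and make up 7 of the 27998 genes counted. The study sequenced single cells of the Mesp1 lineage to follow the cardiopharyngeal mesoderm, the progenitors of heart and branchiomeric (head and neck) muscle. There were 4 libraries, 1 per stage, from embryos of the Mesp1Cre;Rosa26-GFPflox/+ genotype on the Swiss Webster strain, with no other allele or treatment in the labels. By the labels, the 2 early libraries, E8.0 and E8.25 (days of embryonic development), came from the upper portion of the body. The 2 late ones, E9.5 and E10.5, came from the pharyngeal apparatus and heart, so stage and dissected region cannot be told apart. In all 4, living GFP-positive cells were sorted from pooled embryos. Cre is expressed from Mesp1 in nascent mesoderm and marks its descendants for good, so GFP shows ancestry and not current Mesp1 expression.

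Forkhead factors bind DNA through a winged-helix domain and regulate lineage choice in every germ layer. Foxc1 and Foxc2 act with overlap in the paraxial mesoderm, the somites, the second heart field and the vessels, whereas Foxf1 and Foxf2 act in lateral and splanchnic mesoderm, the layer beside the gut that responds to Hedgehog signals of the endoderm. Foxd1 is known as a gene of kidney stroma and head mesenchyme, Foxd2 is its paralogue, and Foxp1 belongs to a separate subfamily of repressors that acts in the myocardium, the outflow tract and the lung.

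The Foxc and Foxf genes lie in pairs in the genome. In mouse build GRCm38.p6 (RefSeq), Foxf2 is at chr13:31625816-31631406 and Foxc1 at chr13:31806646-31810635, with 175 kb between them. Foxq1, a forkhead gene with a known role in hair and epithelia, is at chr13:31558170-31560976. Foxf1 is at chr8:121084386-121088154 and Foxc2 at chr8:121116171-121118895, 28.0 kb apart. Fendrr, a long noncoding RNA gene known from lateral mesoderm, is at chr8:121054882-121083110 on the minus strand. Its annotated start is the side near Foxf1, with 1275 bases between the genes. Foxl1, a forkhead gene of gut mesenchyme, is at chr8:121127685-121130644. The others are alone at chr13:98354245-98356705 (Foxd1), chr4:114906280-114908898 (Foxd2) and chr6:98925342-99522746 (Foxp1).

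The promoter windows of 3 genes from these clusters, each the 250 bases before the annotated start, are shown to set beside the expression of neighbouring genes. RefSeq promoter entries matched 5 of the 7 genes, leaving out Foxf1 and Foxc2. Motifs were searched on both strands by exact letters, with TGTTTAC for the forkhead core, GACCACCCA for the GLI site (bound by the Hedgehog effectors), CCAAT for the box of that name and TATAAA for the TATA box, and capitals mark a match.
Foxc1, chr13:31806396-31806645 (+): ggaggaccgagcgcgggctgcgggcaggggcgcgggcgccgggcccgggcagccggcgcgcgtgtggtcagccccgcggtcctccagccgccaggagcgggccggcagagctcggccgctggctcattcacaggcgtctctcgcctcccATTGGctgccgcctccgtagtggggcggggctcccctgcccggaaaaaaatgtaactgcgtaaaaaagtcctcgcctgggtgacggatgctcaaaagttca
Foxf2, chr13:31625566-31625815 (+): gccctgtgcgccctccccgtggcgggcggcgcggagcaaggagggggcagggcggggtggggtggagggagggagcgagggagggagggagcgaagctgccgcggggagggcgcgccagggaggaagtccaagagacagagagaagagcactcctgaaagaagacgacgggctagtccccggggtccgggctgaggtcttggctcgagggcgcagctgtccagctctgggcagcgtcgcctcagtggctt
Fendrr, chr8:121083111-121083360 (-): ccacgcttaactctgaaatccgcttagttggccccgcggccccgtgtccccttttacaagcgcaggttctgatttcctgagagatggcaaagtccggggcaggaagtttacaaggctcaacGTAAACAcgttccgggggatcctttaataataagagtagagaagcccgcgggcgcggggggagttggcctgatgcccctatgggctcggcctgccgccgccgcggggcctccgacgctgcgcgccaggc
The Foxc1 window held a CCAAT box on the opposite strand, 101 bases before the start. The Foxf2 window held none of the 4 motifs. The Fendrr window held a forkhead core on the opposite strand, 129 bases before the start. Of the 32851 promoter windows of this length in the table, 3.17% held the forkhead core, 0.225% the GLI site, 33.8% the CCAAT box and 12.4% the TATA box. GC content was 70.8% for Foxc1, 71.6% for Foxf2 and 62.0% for Fendrr, against a median of 52.4%. A match describes letters only and says nothing of binding, and none of the windows was measured here.

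Between 2884 (E8.25) and 7525 (E10.5) cells a library were retained, with median UMIs (distinct captured transcripts) per cell from 15205 at E10.5 to 35216 at E8.25. Levels are given as CPM, the counts of a gene per 1000000 UMIs of the cells summed, and values in stage order run from E8.0 to E10.5. The kit counts transcript ends, so levels were not divided by gene length and are compared between libraries and compartments, never between genes. Intervals and limits cover counting error only. Between 16 and 88 cell barcodes were shared by any 2 libraries, at most 1.39% of the smaller one. In sums over a whole library, fewer cells of a type and less RNA per cell cannot be told apart.

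Foxc2 was lower in both late libraries than in either early one. Its level was 75.8, 81.9, 14.0 and 19.7 CPM in stage order, so that the lower early value was 3.84 times the higher late one. Cells with a Foxc2 UMI made up 49.2%, 67.1%, 16.5% and 18.5%. The share in cells carrying erythroid markers, which should lack the gene, gives the background of free RNA. Of these cells, 15.9% and 40.9% held Foxc2 in the early libraries, and 0 of 6 cells and 3.37% in the late ones. With every cell thinned to 10000 UMIs, the early erythroid shares were 7.88% and 13.2%. Foxc1 showed no such drop. It was at 22.9, 21.6, 13.1 and 23.0 CPM, with E10.5 beside both early libraries and E9.5 below them.

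Both Foxd genes were lower at E9.5 than in the early libraries, but Foxd1 alone was high again at E10.5. Foxd1 was at 35.2, 46.3, 4.18 and 25.7 CPM. Its E10.5 library therefore lay nearer to the early pair than to E9.5. Foxd2 was at 7.51, 14.6, 2.55 and 1.90 CPM, and the lower early library was 2.95 times the higher late one.

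The 2 Foxf genes followed different courses. Foxf1 was lowest at E8.25 and highest at E9.5, with 38.7, 20.6, 102 and 50.0 CPM in stage order. Foxf2 had 11.9, 4.06, 8.12 and 29.8 CPM, thus was lowest in the same library and highest in the last. Foxp1 was at 60.6 and 62.7 CPM in the early libraries and at 150.0 and 137 in the late, with 2.19-fold between the nearest values of the groups. It was found in 58.6%, 74.7%, 80.5% and 70.7% of cells, against 18.8%, 32.5%, 2 of 6 cells and 14.4% in the erythroid gate.

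**Figure D1:**
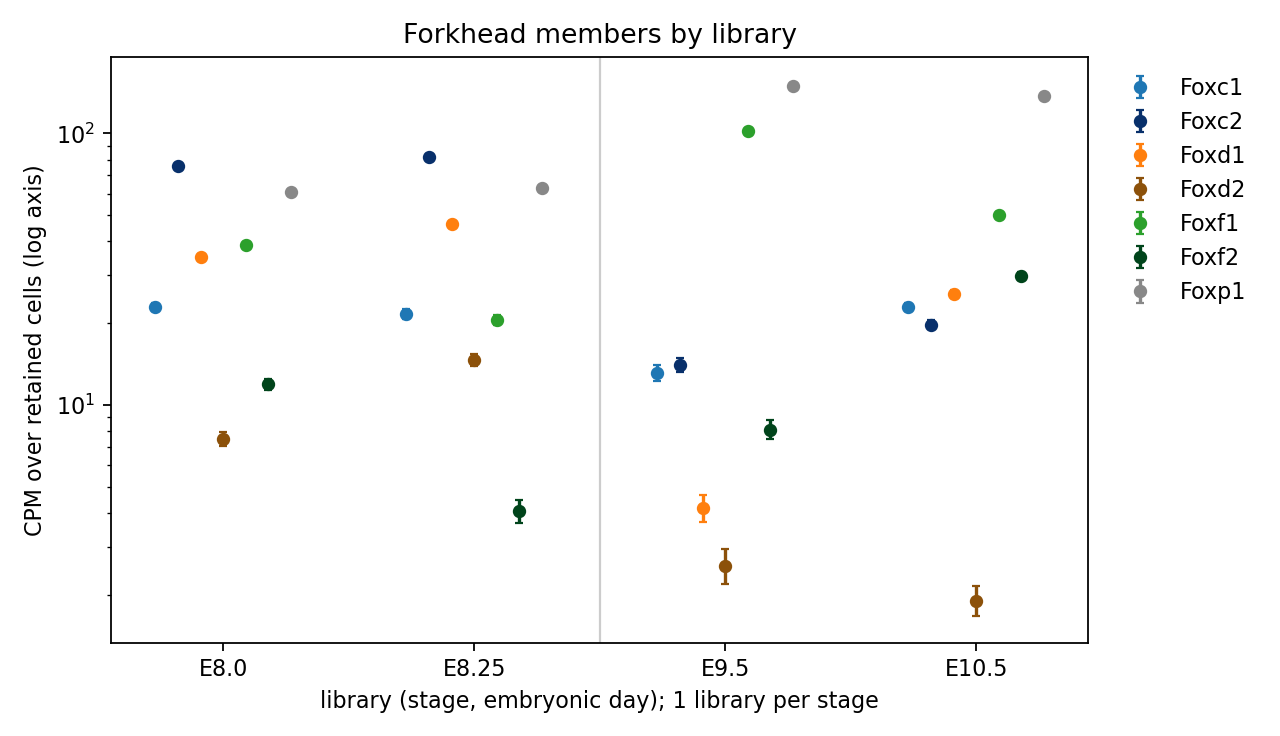
Level of each forkhead gene in the 4 libraries, in CPM on a log axis against stage, with bars for 95% counting intervals. Foxc2 and Foxd2 sit lower late than early, Foxp1 sits higher, and Foxd1 dips to 4.18 at E9.5.

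With 1 library per stage, differences between stages had no replicate and were not tested. Neighbouring stages whose tissue the labels name alike were compared by a fold of at least 2. Between E8.0 and E8.25 only Foxf2 passed it, at a log2 ratio of -1.55 (95% counting interval -1.71 to -1.40), where 4.95% of 9185 genes with at least 5 CPM in either library did so. The cells of this pair differed in kind, with 553 caudal and 964 allantois-like cells (by the marker gates described further on) at E8.0 against 31 and 0 at E8.25. Those gates held 17.1% and 24.8% of the Foxf2 UMIs at E8.0, and caudal cells 3.72% at E8.25, whereas splanchnic cells were at 8.90 and 5.50 CPM. The part this had in the Foxf2 ratio was not tested. The caudal and allantois-like cells of E8.0 are at odds with its label of the upper portion of the body, and the reason was not tested. Foxd2, at 0.96, and Foxf1, at -0.91, lay just inside the limit. Without cells of the erythroid gate Foxd2 passed too, at 1.12. Between E9.5 and E10.5 Foxd1 was 6.14-fold and Foxf2 3.68-fold higher, and Foxf1 2.04-fold lower, against a background of 6.39% of 9618 genes (3.42% higher, 2.97% lower). The Foxf1 value rested on the scaling. Its log2 ratio was -1.03, but -0.87 with trimmed-mean (TMM) library sizes and -0.69 without the erythroid gate, which held 1039 of the E10.5 cells and 6 of those at E9.5. Foxc1, at 0.81, went to 1.15 without that gate. The median of all genes in this pair was -0.19, and -0.03 in the earlier pair. Of both late against both early libraries, 5.27% of 9937 genes differed by at least 2-fold between their nearest values (3.95% higher, 1.32% lower), and Foxc2, Foxd2 and Foxp1 were the 3 members among them.

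Cells were next assigned to marker-gated compartments, each by how many genes of a marker list the cell held. None of the 7 genes was a marker. The gates held their defining genes. Tnnt2, of cardiac thin filaments, was at 1598 to 3541 CPM in the cardiomyocyte gate and at most 139 in any other. Cdh5, the endothelial cadherin gene, was at 122 to 222 CPM in the endothelial gate and at most 4.08 elsewhere. Meox1 of somites (125 to 679.8 CPM in the paraxial gate) and Osr1 (58.8 to 292 in the splanchnic gate) were less restricted, with up to 134 CPM of Meox1 in head mesenchyme and up to 73.3 of Osr1 in caudal cells. The splanchnic gate stands for the posterior second heart field. Cells meeting lists equally (409 to 922 a library) or meeting none (326 to 1855) were left out. The caudal gate had cells at E8.0 and E8.25 alone, and the allantois-like gate at E8.0 alone. Some gates were mixed. In the head mesenchyme gate the 6 splanchnic markers summed to 61.9, 78.0, 255 and 154 CPM in stage order, and in the splanchnic gate the head mesenchyme markers summed to 269, 345, 312 and 226 CPM. Phlda2, an imprinted gene in the allantois-like list, reached 1282 CPM in the splanchnic gate at E8.0. The mesothelial gate held unlike cells by stage, so it is named here by its marker list only. Its own markers summed to 356, 487, 936 and 1899 CPM, the epithelial markers in it to 4118, 4122, 464 and 594, and the cardiomyocyte markers to 354, 274, 1700.0 and 1749. At E8.0, 28 of its 33 cells sat at the minimum number of markers.

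Foxc1 and Foxc2 were highest in paraxial cells of the early libraries. Foxc2 was at 269 and 242 CPM there and at 65.5 at E10.5, where the gate held 183, 160 and 85 cells. At E9.5 it held 12 cells, under the minimum of 20. Head mesenchyme, the next gate in the early libraries, held 141, 109.5, 13.3 and 23.6 CPM in stage order. The early levels were thus above the late ones within both gates. Endothelial cells, the lining of vessels and endocardium, were at 62.3, 63.4, 45.4 and 70.3 CPM, the highest gate at E9.5 and level with paraxial cells within counting error at E10.5. In the splanchnic gate Foxc2 was at 34.9, 30.0, 16.3 and 15.2 CPM, lower than in head mesenchyme in every library but E9.5. Erythroid cells held 6.03, 19.5 and 1.59 CPM at E8.0, E8.25 and E10.5, so a Foxc2 value near 19.5 CPM at E8.25 is not above that background. At E8.25 erythroid cells had a median of 51319 UMIs, against 33859.5 in cardiomyocytes and 27091 in endothelial cells. The same number of free UMIs gives a higher CPM in cells with fewer UMIs, so the background of such gates can be higher.

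Foxc1 was at 76.7, 48.4 and 57.2 CPM in paraxial cells at E8.0, E8.25 and E10.5, a mean of 60.8 ± 14.5 (SD, n = 3 libraries). Head mesenchyme followed at 30.7 ± 10.8 and the anterior second heart field at 26.3 ± 10.2 (SD, n = 4 libraries each). The first step in this order was larger than the spread over libraries, and the second was not. The paraxial mean lacks E9.5, where head mesenchyme was at 17.0 CPM, so the first step is over unlike sets of libraries. Cardiomyocytes were near the bottom, at 3.21, 5.79, 2.62 and 5.87 CPM. By contrast endothelial cells held 13.1, 12.7, 16.7 and 35.4 CPM, and all 4 values lay above the cardiomyocyte range.

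Foxd1 was highest in paraxial cells wherever that gate held enough of them. It was at 104, 151 and 163 CPM in the paraxial gate of the 3 libraries with enough cells, a mean of 139 ± 31.3 (SD), and its gap to head mesenchyme (50.8 ± 34.6, n = 4) exceeded the spread of either. The paraxial mean lacks E9.5, which the head mesenchyme mean includes, so the gap is over unlike sets of libraries. In head mesenchyme Foxd1 was at 82.5, 71.8, 5.08 and 43.9 CPM. The dip at E9.5 thus appeared within that gate and not only in the whole library. At E9.5 its highest gate was the splanchnic one, at 7.01 CPM, within counting error of head mesenchyme. Endothelial cells were at 0 to 3.37 CPM. Foxd2 was at 19.7 and 44.3 CPM in paraxial cells at E8.0 and E8.25 but at 2.76 at E10.5, and its means over libraries did not differ between neighbouring gates beyond their spread.

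Foxf1 was highest in the splanchnic gate of both late libraries. It was at 83.2, 82.2, 333 and 186 CPM there in stage order, and a UMI was found in 68.7%, 70.1%, 83.2% and 79.1% of its cells, against 6.47%, 9.52%, 0 of 6 and 4.72% of erythroid cells. At E9.5 and E10.5 the next gate, the anterior second heart field, was at 92.5 and 52.2 CPM. In the early libraries the splanchnic gate had neighbours at its level: caudal cells held 108 and 83.2 CPM and the mesothelial gate 100.4 and 96.4, and the counting intervals of the highest and the next gate overlapped. The mesothelial gate of the late libraries was at 38.8 and 9.32 CPM, but since its cells differed in kind, this cannot be read as a change within 1 cell type. At E9.5 splanchnic cells held 59.3% of all Foxf1 UMIs. Paraxial cells held only 4.53, 8.62 and 11.7 CPM at E8.0, E8.25 and E10.5, and endothelial cells 4.39 to 7.28.

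Foxf2 was at 24.6 CPM in caudal cells and 19.7 in allantois-like cells at E8.0, above the 8.90 of the splanchnic gate. In the splanchnic gate of the later stages it was at 5.50, 18.5 and 47.3 CPM. By E10.5 the anterior second heart field, at 42.3 CPM, and head mesenchyme, at 38.0, were close behind, the first within counting error. Fendrr had its highest level in caudal cells at E8.0 and E8.25 (19.3 and 8.80 CPM, the latter within counting error of the mesothelial gate) and in the splanchnic gate at E9.5 and E10.5 (20.4 and 30.7 CPM). Foxl1, on the far side of Foxc2, was highest in paraxial cells in the early libraries (8.79 and 26.6 CPM) and in splanchnic cells in the late ones (20.2 CPM in each).

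Foxp1 was broad. In the splanchnic gate it was at 69.4, 63.9, 246 and 300.0 CPM and in head mesenchyme at 99.5, 91.8, 114 and 159.9 CPM, so the order of the gates differed between the early and the late libraries. Its mean over libraries did not step beyond the spread anywhere from the splanchnic gate (169.8 ± 121, n = 4) down to the endothelial gate (61.1 ± 36.5, n = 4). Caudal (33.7 and 43.2 CPM), allantois-like (16.8) and erythroid cells (6.56 to 11.9) were at the low end.

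**Figure D2:**
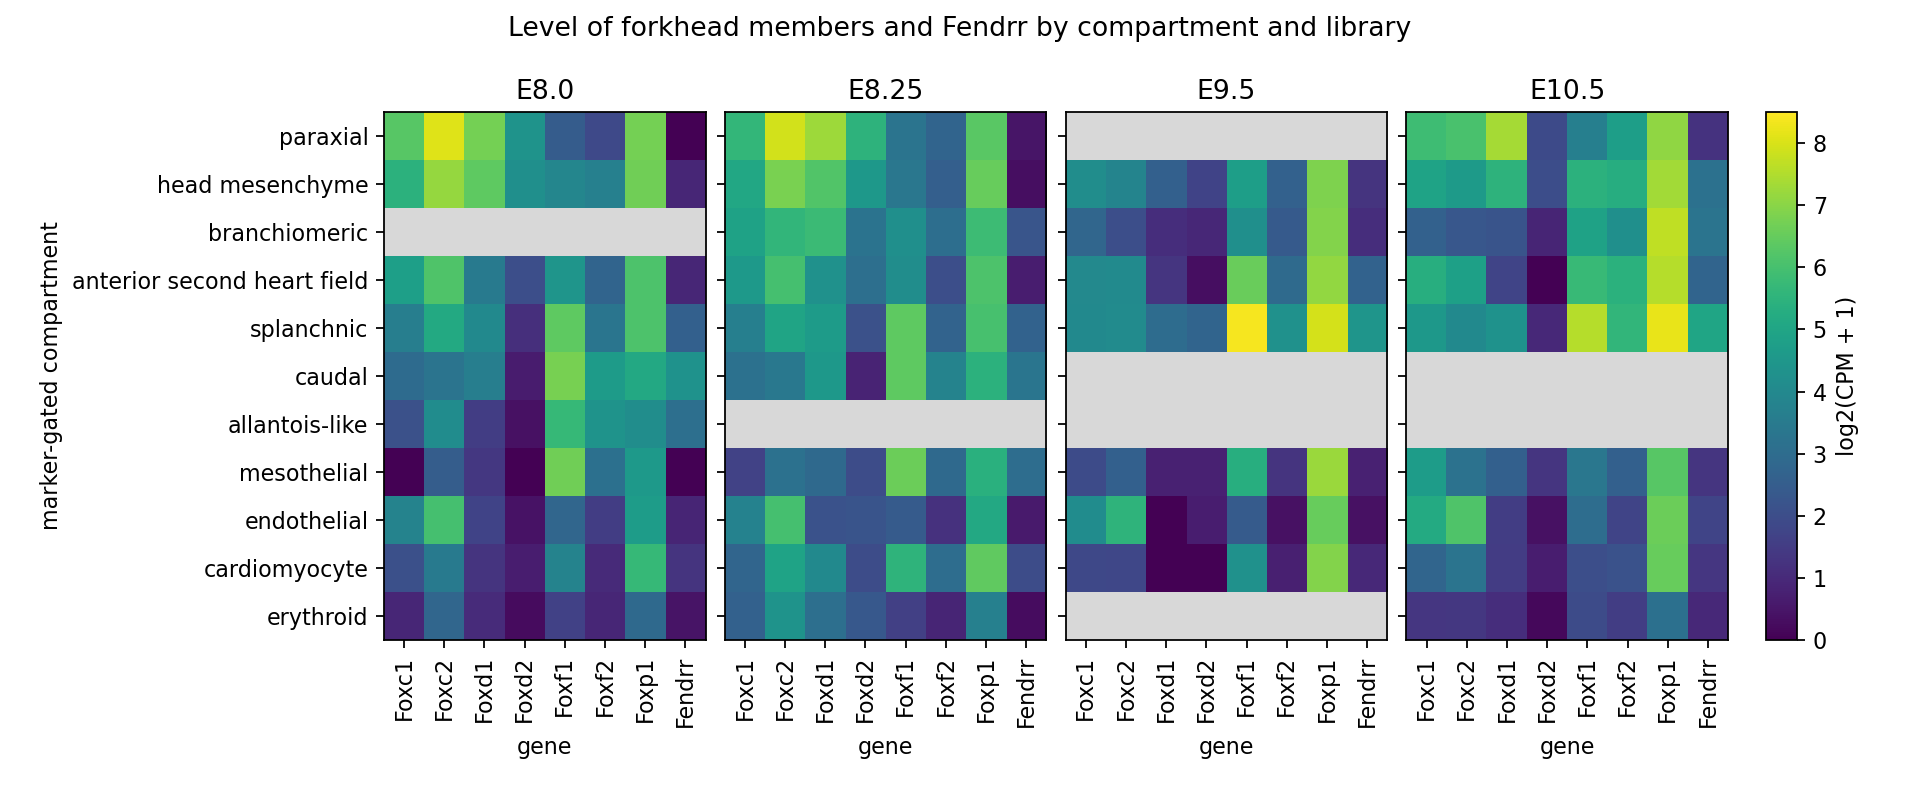
Level of each member and of Fendrr as log2(CPM + 1) in colour, by marker-gated compartment (rows) and gene (columns), with a panel per library and grey for fewer than 20 cells. Foxc2 is highest in paraxial cells of the early libraries (269 and 242 CPM), Foxf1 in splanchnic cells of E9.5 (333 CPM), and Foxp1 is broad.

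3 comparisons between gates were tested within libraries, with UMIs summed per library and gate and the library as a block in edgeR's quasi-likelihood test. In splanchnic against paraxial plus head mesenchyme cells, Foxf1 was at 83.2 against 13.0, 82.2 against 9.16, 333 against 25.9 and 186 against 41.8 CPM in stage order. The splanchnic value was higher in 4 of 4 libraries, with no overlap between the gates. The difference was 2.87 ± 0.25 on the log2 scale (SE), or 7.30-fold, with an adjusted p of 0.00947 by edgeR. Foxf1 was the only one of the 7 members called, where 2.38% of 12118 genes tested were called (1.25% higher and 1.13% lower, markers of the gates included). It was called under 10 of 12 alternatives and lost the call without E8.25 and without the library block, where 13 genes were called in all (edgeR adjusted p up to 0.193).

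Foxc and Foxd genes leaned the other way without passing the test. Foxc1 was at 11.3 against 46.6, 11.7 against 35.7, 15.3 against 17.0 and 22.2 against 30.6 CPM, lower in the splanchnic gate in 4 of 4 libraries (log2 -1.08 ± 0.33, SE, edgeR adjusted p = 0.186). Foxc2 was lower in 3 of 4 libraries, from 34.9 against 155 CPM at E8.0 to 16.3 against 13.3 at E9.5 (-1.29 ± 0.43, edgeR adjusted p = 0.221). Foxd1 gave -1.47 ± 0.43 (edgeR adjusted p = 0.168) and Foxd2 -1.84 ± 0.86 (edgeR adjusted p = 0.371), and both were higher in the splanchnic gate at E9.5 alone. Without E9.5 the number of members called went from 1 to 3, as Foxd1 (adjusted p = 0.0308, up to 0.883 over 12 alternatives) and Foxd2 (0.0351, up to 0.883) joined by edgeR. The number of all genes called in that setting is not set beside it, so the rise is not read as particular to the members. Head mesenchyme cells of E9.5 were also those with the highest Wnt2, a marker of the splanchnic list, at 114 CPM against 7.47, 18.7 and 28.4 in the other libraries, and the part this had in the result was not tested. DESeq2 added Foxc1, at an adjusted p of 0.0211, the lowest of 12 alternatives that reached 0.522.

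Foxf2 did not pass the test (0.44 ± 0.33, edgeR adjusted p = 0.571), with log2 ratios of -0.31, 0.12, 1.82 and 0.33 in stage order. Foxp1 was lower in the splanchnic gate in both early libraries and higher in both late ones. The log2 ratios were -0.53, -0.49, 1.11 and 0.92, and the fit over all 4 gave 0.23 ± 0.32 (edgeR adjusted p = 0.771). Fendrr was higher together with its neighbour Foxf1, at 2.92 ± 0.39 (edgeR adjusted p = 0.0261), and was higher in 4 of 4 libraries. Of the 37 other forkhead genes listed, 16 passed the filter and 0 were called by edgeR (1 at an unadjusted p under 0.05, 0 by DESeq2). At an unadjusted p under 0.05 there were 4 of the 7 members and 5 of the 11 Hedgehog genes, against 16.1% of all genes tested. Of 11 Hedgehog pathway genes, all tested, only the coreceptor gene Cdon was called, lower in the splanchnic gate at -0.99 on the log2 scale (edgeR adjusted p = 0.0420), and DESeq2 called 2 lower. The list held both directions. Ptch1 (0.85, edgeR adjusted p = 0.241) and Gli1 (0.99, edgeR adjusted p = 0.277) were higher in 4 of 4 libraries without a call. Boc leaned lower (-1.28, edgeR adjusted p = 0.0829), also without a call. The median difference was 0.12 for the other forkhead and 0.08 for the Hedgehog genes tested, against -0.00 over all genes.

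Endothelial cells were then set against cardiomyocytes, the lining against the muscle of the early heart and vessels. Foxc1 was at 13.1 against 3.21, 12.7 against 5.79, 16.7 against 2.62 and 35.4 against 5.87 CPM, and was 4.64-fold higher (log2 2.21 ± 0.26, SE, edgeR adjusted p = 0.000679). Foxc2 was at 62.3 against 10.4, 63.4 against 29.7, 45.4 against 2.49 and 70.3 against 8.65 CPM, or 6.30-fold higher (2.66 ± 0.41, edgeR adjusted p = 0.00259). Both were higher in 4 of 4 libraries and were called under all 11 alternatives run for this comparison. The difference of Foxc2 was smallest at E8.25, the library with the highest Foxc2 level in erythroid cells (19.5 CPM). Cardiomyocytes of E8.0 and E8.25 had fewer UMIs per cell than erythroid cells (medians of 18983 and 33859.5, against 34120.5 and 51319), so free RNA can give them a higher CPM. Whether their early Foxc2 values lay above free RNA was not tested. Of 6 cardiomyocyte markers, those in endothelial cells summed to 109, 53.1, 194 and 183 CPM, and of 6 endothelial markers those in cardiomyocytes to 131, 81.1, 72.6 and 59.1 CPM, mostly Egfl7, and their part in the result was not tested.

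Foxp1 was lower in endothelial cells, at -0.65 ± 0.21 on the log2 scale (edgeR adjusted p = 0.0458). It was lower in 3 of 4 libraries, with log2 ratios of -1.03, -1.32, -0.42 and 0.06, and was called under only 5 of the 11 alternatives. Foxf1 gave -1.41 ± 0.60 (edgeR adjusted p = 0.106), with log2 ratios of -1.11, -3.35 and -2.09 but 1.24 at E10.5. Its estimate ran from -2.11 to -0.05 over 11 alternatives, and it was called without E10.5, with no filter on low counts and with gates on thinned cells. Foxd1, Foxd2 and Foxf2 did not pass the filter on low counts. These 3 calls among 4 tested members stand beside 38.1% of 10705 genes called (19.2% higher, 18.9% lower), so a call by itself was common here. The 3 were also those with an unadjusted p under 0.05, against 47.9% of genes. Of the other forkhead genes 12 were tested and 7 called. Foxo1, which acts in vessel formation, was 3.28 higher on the log2 scale (edgeR adjusted p = 3.27e-05), and Foxm1 (0.93), Foxn2 (0.96) and Foxn3 (0.57) were higher too. Foxo4 (-1.71), Foxp2 (-1.40) and Foxo3 (-1.07) were lower. Of 7 Hedgehog genes tested, 4 were lower, Gli2 (-2.31), Cdon (-1.39), the receptor gene Ptch1 (-1.07) and Gas1 (-0.72). The median was -0.01 for the other forkhead and -0.72 for the Hedgehog genes, against 0.02 over all genes.

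The third test set branchiomeric cells, the progenitors of head and neck muscle, against the anterior second heart field in the 3 libraries with enough cells. None of the 6 members tested was called by edgeR, where 1.64% of 11124 genes were (0.396% higher, 1.24% lower). At an unadjusted p under 0.05 there were 4 members, against 13.4% of all genes, and DESeq2 called 1 (Foxc2). Foxc2 was at 47.5 against 62.5, 3.15 against 15.8 and 3.97 against 27.3 CPM. It was lower in branchiomeric cells in all 3, slightly at E8.25 and clearly in both late libraries (log2 -1.65 ± 0.43, edgeR adjusted p = 0.144). Foxc1 was at 28.9 against 23.5, 6.07 against 15.0 and 5.29 against 39.5 CPM (edgeR adjusted p = 0.326). Without E8.25, whose branchiomeric gate held 30 cells, both Foxc genes were called, with no count of all genes in that setting set beside it. Foxf1 (-1.30 ± 0.40, edgeR adjusted p = 0.215) and Foxd1 (1.12 ± 0.36, edgeR adjusted p = 0.246) did not pass the test either. The log2 ratios of Foxf1 were 0.07, -2.36 and -0.84, and its estimate ran from -3.23 to -0.45 over 10 alternatives and was called under 3 of them. Those of Foxd1 were 1.55, -0.34 and 0.62, with E9.5 on the other side, and it was called under 1 of 9 alternatives, with no filter on low counts. Foxp1 was at -0.07 ± 0.11. None of 13 other forkhead and of 11 Hedgehog genes tested was called by edgeR, with 4 of each at an unadjusted p under 0.05, and DESeq2 called 0 and 1. Their medians were -0.26 and -0.04, against -0.00 over all genes.

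**Figure D3:**
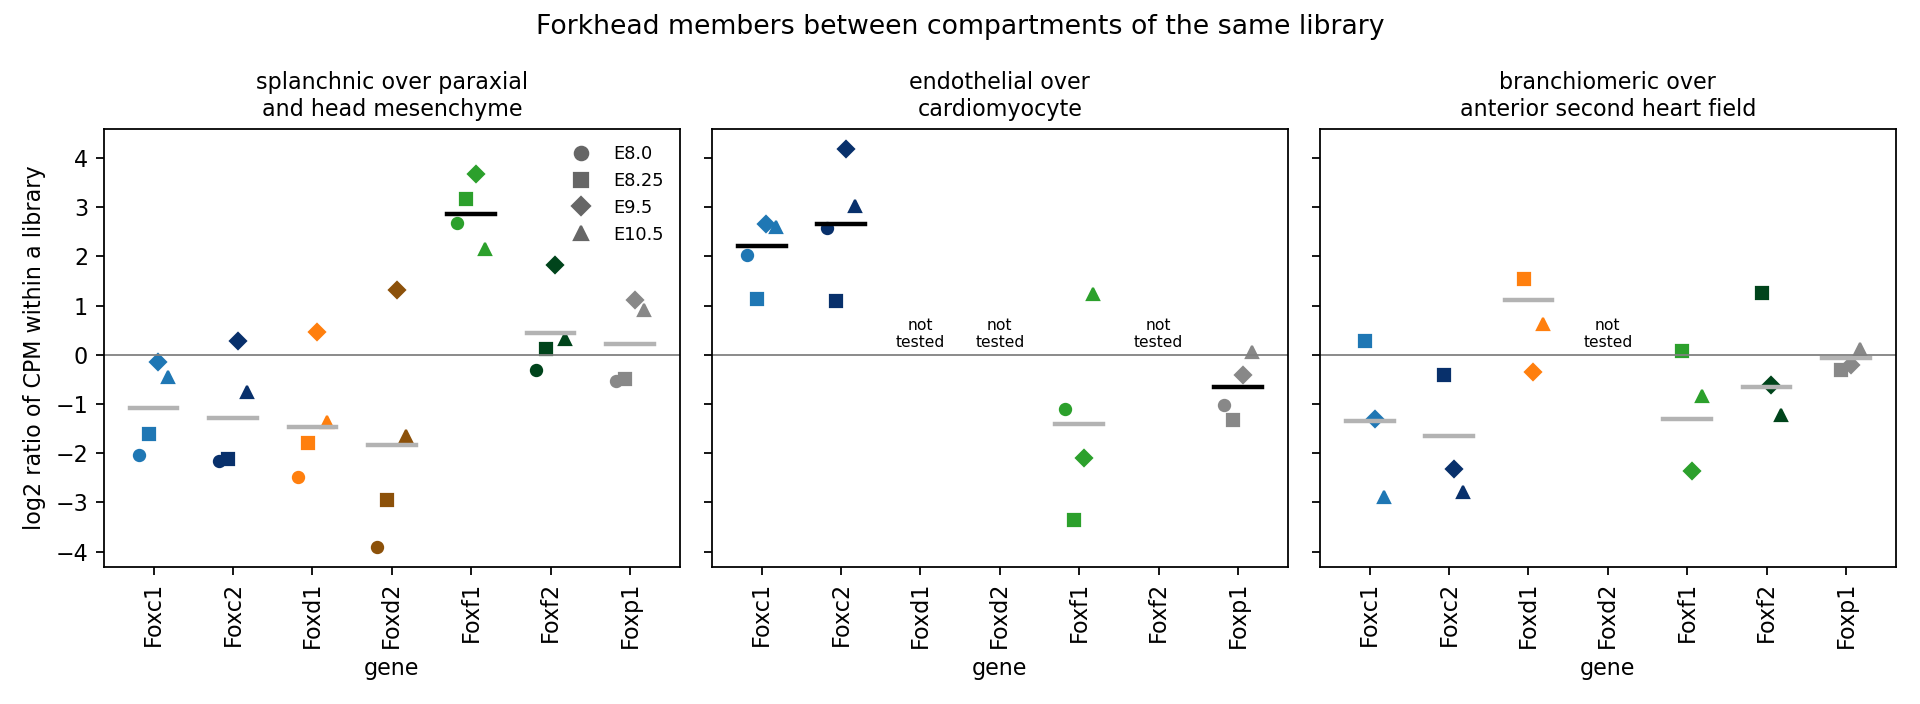
Log2 ratio of each gene between 2 gates of the same library, for the 3 comparisons, with a point per library. A line gives the edgeR estimate, black where called and grey otherwise. Foxf1 is above 0 in all 4 libraries in the splanchnic comparison, as Foxc1 and Foxc2 are in the endothelial one, and the Foxp1 points fall on both sides of 0.

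In single cells, Foxc (a UMI of Foxc1 or Foxc2) and Foxf (a UMI of Foxf1 or Foxf2) were found together less often than independence would give at E8.0 and more often in the late libraries. Foxc was found in 57.0%, 74.3%, 28.1% and 34.8% of cells in stage order, and Foxf in 42.8%, 28.5%, 34.0% and 33.5%. In erythroid cells, which should hold neither, the shares at E8.0, E8.25 and E10.5 were 18.8%, 47.6% and 6.93% for Foxc and from 8.37% to 12% for Foxf. Cells with both numbered 1339, 573, 481 and 1302. In the E8.0 library they made up 18.8% of cells (95% exact binomial interval 17.9 to 19.7), where the product of both shares gave 24.4%. At E8.25 they made up 19.9% (18.4 to 21.4) against 21.2%, which lay inside the interval. The expected share comes from the same cells, so these intervals do not measure the distance from independence, which was not tested. At E9.5 the share was 12.3% (11.3 to 13.3) against 9.54%, and at E10.5 17.3% (16.5 to 18.2) against 11.7%. The ratio of observed to expected was thus 0.771, 0.939, 1.29 and 1.48.

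Depth and doublets moved these ratios in size but not in side. In cells thinned to 10000 UMIs they were 0.622, 0.876, 1.32 and 1.63. With at least 2 UMIs required of each family they were 0.502, 0.806, 1.60 and 1.75, a wider contrast between early and late. The share of the more common family sets the largest ratio possible, and this share changed with stage and threshold. Foxc fell from 74.3% to 57.3% of cells at E8.25 with 2 UMIs required, and from 34.8% to 16.8% at E10.5. The part this had in the wider contrast was not tested. With doublets retained they were 0.806, 0.941, 1.29 and 1.46. The droplets removed as doublets held both families in 48.1%, 38.6%, 26.7% and 31.9% of cases, more than the retained cells of each library. Erythroid cells held both in 1.76%, 7.84% and 1.25% at E8.0, E8.25 and E10.5.

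**Figure D4:**
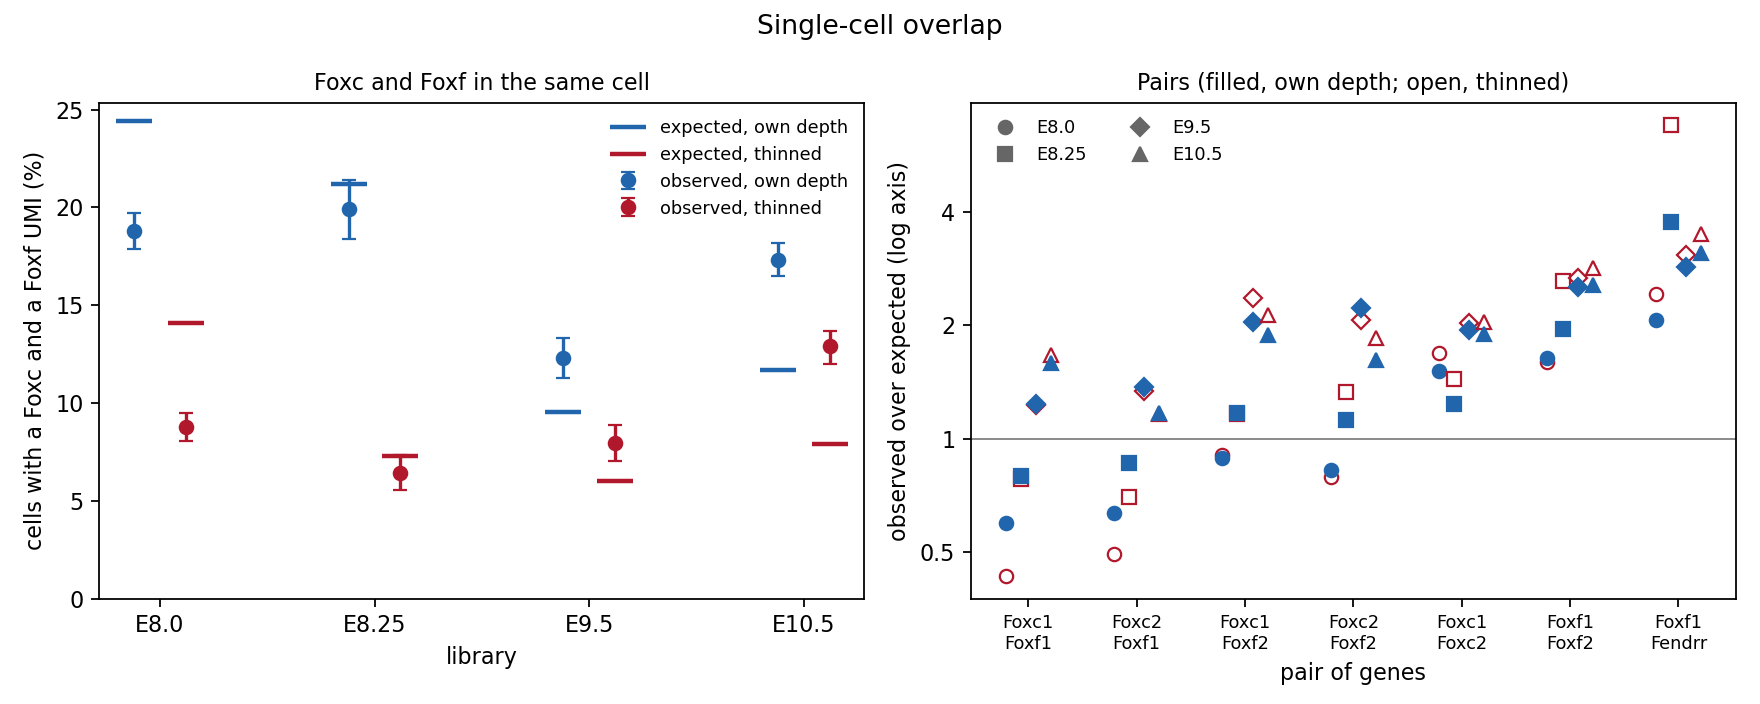
Left, percentage of cells with both a Foxc and a Foxf UMI by library, as points with 95% exact binomial intervals, beside the share expected under independence (lines), at full depth (blue) and thinned to 10000 UMIs (red). Right, observed over expected cells for 7 gene pairs on a log axis, with a symbol per library. The points lie below their line at E8.0 (18.8% against 24.4%) and above it at E10.5 (17.3% against 11.7%), and the pairs of Foxf1 with a Foxc gene cross 1 between the early and the late libraries.

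Within gates the ratios of the early libraries lay on both sides of 1. Splanchnic cells gave a ratio of 1.05, 1.02, 1.04 and 1.05, and 32.7%, 39.5%, 31.4% and 33.7% of them held both families. Paraxial cells were at 1.02, 0.983 and 1.23 at E8.0, E8.25 and E10.5. Over the gates with at least 10 cells expected, the range was 0.906 to 1.11 at E8.0 and 0.830 to 1.37 at E8.25, where erythroid cells gave the highest value. In the late libraries the ratios at full depth ran from 1.04 to 1.86 over 4 gates at E9.5 and from 1.05 to 2.02 over 7 gates at E10.5. In head mesenchyme and branchiomeric cells the interval of the observed share lay above the expected share. The branchiomeric ratios rested on 20 cells with both at E9.5 (10.7 expected) and 25 at E10.5 (12.4 expected). The interval held the expected share in the splanchnic gate, the anterior second heart field and, at E10.5, the paraxial, endothelial and mesothelial gates. The E10.5 ratios of the last 4 were 1.34, 1.23, 1.16 and 1.28. Since the expected share comes from the same cells, the interval does not decide whether these exceed independence. After thinning, the splanchnic gate was at 1.00, 1.09, 1.06 and 0.987. Erythroid cells, which should hold neither family, gave 2.16 at E10.5, from 13 cells with both. Head mesenchyme was at 0.918, 0.979, 1.54 and 1.72, and at 0.890, 1.05, 2.02 and 1.87 after thinning. That gate was mixed, with the most splanchnic marker RNA at E9.5, and the part this had in its ratios was not tested. Head mesenchyme also held 26.2%, 28.4%, 11.6% and 29.3% of all cells with both, whereas the splanchnic gate held 10.8%, 12.2%, 45.1% and 13.9%.

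Gene pairs of 1 locus can be set beside pairs across loci. Foxc2 with Foxf1, neighbours on chromosome 8, gave ratios of 0.635, 0.865, 1.37 and 1.17, and Foxc1 with Foxf1, on different chromosomes, 0.599, 0.795, 1.24 and 1.59. Foxc1 with Foxf2, neighbours on chromosome 13, gave 0.891, 1.17, 2.04 and 1.88, and Foxc2 with Foxf2, on different chromosomes, 0.828, 1.12, 2.22 and 1.62. In each of these sets the late ratios were above the early ones. Paralogues overlapped beyond independence in every library, Foxc1 with Foxc2 at 1.51, 1.24, 1.94 and 1.89 and Foxf1 with Foxf2 at 1.64, 1.95, 2.53 and 2.55. Fendrr and Foxf1 were above these paralogues in every library, from 2.06 at E8.0 to 3.75 at E8.25, and of the cells with Fendrr 72.5%, 85.8%, 91.9% and 81.1% held Foxf1. The largest ratio possible differs between pairs, as it is set by the share of the more common gene. At E8.25 Foxc2 was in 67.1% of cells, Foxf1 in 22.9% and Fendrr in 3.68%, so the order of the pairs depends in part on detection.

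Levels over the 38 sums of library and gate gave a similar picture for paralogues. These are descriptions with no test, since sums of 1 library share their depth and free RNA. They pool all stages, so they cannot show the change in overlap of Foxc genes with Foxf1 between early and late libraries. On the log2(CPM + 1) scale Pearson's r was 0.81 for Foxc1 with Foxc2, 0.81 for Foxd1 with Foxd2 and 0.71 for Foxf1 with Foxf2. Across the families it was -0.03 for Foxc1 with Foxf1, -0.14 for Foxc2 with Foxf1 and 0.32 for Foxc1 with Foxf2. Of 9219 genes compared, those most like Foxc1 were Foxc2, Pitpnc1 (0.76) and Proser1 (0.73), and those most like Foxc2 were Col23a1 (0.83), Foxc1 and Fst (0.73). Foxd1 went with Nbl1 (0.82), Lrig3 (0.81) and Rgma (0.79), and Foxd2 with Foxd1, Fst (0.77) and Nbl1 (0.75). Foxf1 went with 2810474O19Rik (0.79), Tbx3 (0.76) and Hoxb5 (0.75). Fendrr, whose mean was under the 5 CPM needed to be compared, had an r of 0.78 with Foxf1 and of 0.74 with Foxf2. Foxf2 went with Nfatc4 (0.77), Twist2 (0.76) and Sfrp2 (0.74). Foxp1 went with Gm1673 (0.95), Kansl1l (0.93) and Tecr (0.89).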

How the data were processed

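Cells were sorted, loaded on the version 2 3' kit of 10x Genomics and, per the labels, aligned with Cell Ranger 3.1.0 to mm10. The authors deposited raw UMI counts per gene and cell for barcodes called as cells, with no normalization. Deposited totals ran from 74920880 to 168407965 UMIs a library, and that depth sets the counting intervals (95%, exact) and the limit for a count of 0 (3 counts).

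Cells with at least 1000 genes and at most 10% mitochondrial UMIs were retained. Scrublet (scanpy 1.11.5) scored doublets, and the highest scores were removed at 0.8% per 1000 cells, since its own threshold marked as little as 0.197% of a library. Cells entered a gate with at least 4 markers of an abundant list or 3 of another, out of 15 lists, by the highest share of markers held, and ties were left out. These minimums were chosen after marker detection was seen. Gate names are rebuilt here and may differ from the study's clusters. UMIs were summed per library and gate (at least 20 cells) and tested with edgeR 4.0.16 (R 4.3.3, TMM, filterByExpr, library as block, Benjamini-Hochberg over all genes, called under 0.05), and with DESeq2 1.42.0 as an alternative. Only the edgeR step was tried on simulated counts, modelled on the endothelial and cardiomyocyte sums. Gating, doublet removal, thinning and overlap were not simulated. Thinning used 10000 UMIs and seed 0. Python 3.11.15, numpy 2.4.6, scipy 1.17.1 and pandas 2.3.3 were used.

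Only 1 library per stage was analysed here (a further E9.5 control library of the study was not), so within-library contrasts treat the 4 stages as replicates. Their p-values measure how far the difference between gates varied from stage to stage. The labels give groups no replicate numbers, and the block comes from the library itself. The 7 genes were always named; other forkhead genes (37 listed), Hedgehog genes (11), Fendrr and the 3 genes most alike were named by a fixed rule. Members and lists were chosen with earlier results of these data known. Libraries of other genotypes and lineages were not analysed here.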

Additional observations from a re-analysis of the deposited data

Results flagged for a closer look

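The overlap of Foxc with Foxf genes in single cells was below independence at E8.0 and above it in both late libraries. At E8.25 it was slightly below, and whether that exceeds counting error was not tested. The ratio of observed to expected cells with both was 0.771 and 0.939 in the early libraries, but 1.29 and 1.48 in the late ones. The ratios were below 1 early and above 1 late for Foxc1 with Foxf1 (0.599, 0.795, 1.24 and 1.59 in stage order) and for Foxc2 with Foxf1 (0.635, 0.865, 1.37 and 1.17), but not for the pairs with Foxf2, which at E8.25 were at 1.17 with Foxc1 and 1.12 with Foxc2. Foxp1 was lower in splanchnic than in paraxial and head mesenchyme cells of both early libraries (log2 ratios -0.53 and -0.49) and higher in both late ones (1.11 and 0.92). None of these differences between stages was tested, since there was 1 library per stage, and dissected region changed with stage.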

How the results depend on the processing

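In splanchnic against paraxial and head mesenchyme cells, 1 member was called, with 2 by DESeq2, 0 without the replicate block (library as block left out), and 0 to 3 when libraries were left out in turn (0 without E8.25, 3 without E9.5). The block moved the count of all genes called from 13 without it to 289, and DESeq2 gave 625. In endothelial against cardiomyocyte cells 3 members were called and 2 to 4 under the alternatives. In branchiomeric against anterior second heart field cells 0 were called, with 4 when no filter on low counts was used, 1 by DESeq2, 1 with the stricter gate, 1 with gates set on thinned cells, 0 to 2 when libraries were left out (2 without E8.25) and 0 without the block. Except where given, the number of all genes called under an alternative is not set beside these counts. They do not show whether a setting moved the members more than other genes. Foxp1 changed direction in the first comparison without E9.5 (-0.06) and without E10.5 (-0.00), and in the third without the block (0.02), without E8.25 (0.01) and with gates on thinned cells (0.10), none of them called; leaving out libraries gave Foxp1 -0.06 to 0.49 in the first and -0.23 to 0.01 in the third. Of 187 values of single genes under alternatives of the tests, 159 kept direction and side of the threshold. Between E8.0 and E8.25 the count of members with a 2-fold difference was 1, or 2 without the erythroid gate. The median log2 ratio of the Foxc and Foxf overlap over libraries was 0.14, ranged from -0.09 to 0.36 when libraries were left out, and stayed between 0.10 and 0.19 with cells thinned, 2 UMIs required, doublets retained or blood and endothelial cells left out. Where a value changed, the cause was not tested. Low counts kept Foxd1, Foxd2 and Foxf2 out of the endothelial test and Foxd2 out of the branchiomeric one.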
